A study of Mus musculus with 4 samples.

Results

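The heat shock and ER stress chaperones examined here were 33 of the 27179 genes in the count table of MC38 cells, a mouse colon carcinoma cell line. The members were the rows whose NCBI gene ID carries one of 33 listed symbols. They comprised 14 cytosolic chaperones and co-chaperones, 3 mitochondrial chaperones, 12 chaperones and folding enzymes of the endoplasmic reticulum (ER), and 4 genes of the unfolded protein response (UPR), named UPR regulators below. Of the 33 members, 31 passed the filter on low counts and were tested together with all 13580 genes that passed it, and Hspa1a and Hspb1 did not pass.

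RNA-seq was performed on 4 libraries, 1 per condition: untreated MC38 cells under normoxia, untreated cells under hypoxia, IFN-γ treated cells under normoxia, and IFN-γ treated cells under hypoxia. All 4 came from the same unmodified cell line, the oxygen level was 20% for normoxia and 1.5% for hypoxia, and IFN-γ was used at 5 ng/mL for 24 h in most of the study's experiments, while the duration of hypoxia for these libraries is not given in the sources used here. The comparisons address how IFN-γ treatment and hypoxia, alone and combined, altered the RNA of these cells. The libraries held between 34302971 and 34537939 counts, the largest being 1.01 times the smallest, so that counts of a gene can be read side by side.

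Hypoxia and IFN-γ each changed the genes known to respond to them. Car9, Vegfa, Slc2a1, Bnip3 and Pgk1 rose with hypoxia by fitted log2 changes of 0.74 to 2.14, and Irf1, Gbp2, Cxcl9 and Tap1 rose with IFN-γ by 2.04 to 5.20 (edgeR's quasi-likelihood test, each of these genes with a Benjamini-Hochberg adjusted p under 0.05). The epithelial markers expected of a colon carcinoma were nearly absent. Of 8 epithelial genes, 4 had at most 3 counts in every library, Cdh1 and Cdx2 were at 0 in all 4, and the summed level of the list lay between 2.48 and 3.26 CPM (normalised counts scaled to the library size). The 6 mesenchymal genes summed to between 2614 and 2906 CPM, a sum carried mostly by Vim (74838 to 81307 counts) and Fn1 (13791 to 20142 counts). Others of the list were low, Col1a1 with 29 to 66 counts and Acta2 with 6 to 30. Of 6 immune cell genes, 4 had at most 3 counts in every library, with a summed level of 2.31 to 2.98 CPM.

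Chaperones bind unfolded or partly folded proteins and hold them back from aggregation. The Hsp70 proteins do so in cycles of ATP hydrolysis that J-domain proteins (the Dnaj genes) start and nucleotide exchange factors end, the Hsp90 proteins act later on kinases, receptors and other near-native clients, and small heat shock proteins hold clients without ATP. In the cytosol the transcription factor Hsf1 raises these genes when unfolded protein accumulates, through heat shock elements made of inverted nGAAn repeats. In the ER, the sensors encoded by Ern1 (IRE1), Atf6 and Eif2ak3 (PERK) answer the same need through the UPR, and Xbp1 and cleaved Atf6 act on ER stress response elements. Low oxygen limits oxidative protein folding in the ER, and IFN-γ raises secretory and membrane proteins of antigen presentation.

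Elements of both kinds were searched in the promoter sequences of the members, where a match is a description of letters and not a shown binding site. RefSeq windows on GRCm38.p6, from 250 bases before to 50 bases after each annotated start, were at hand for 25 of the 33 members (31 windows) and for 32851 starts in all. The ER stress response element, searched on both strands as CCAAT and CCACG with 9 bases between them, occurred in 0.119% of all windows and in those of 5 of the 9 ER chaperone genes with a window. It occurred in none of the cytosolic, mitochondrial or UPR regulator windows. The matches are shown because, among the members, they were found in ER chaperone genes alone, and neither the member rule nor the counts used them. Capitals mark the fixed letters of the element, which reads CGTGG before ATTGG where it lies on the opposite strand. Each stretch is on the gene's own strand, at chr2:34772013-34772055 (plus) for Hspa5, chr10:86705626-86705668 and chr10:86705521-86705563 (minus) for the 2 matches of Hsp90b1, chr14:118937815-118937857 (plus) for Dnajc3, chr12:17266479-17266521 (plus) for Pdia6 and chr15:88819508-88819550 (plus) for Creld2.
Hspa5: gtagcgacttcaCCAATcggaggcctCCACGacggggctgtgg
Hsp90b1, distal: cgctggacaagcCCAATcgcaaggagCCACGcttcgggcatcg
Hsp90b1, proximal: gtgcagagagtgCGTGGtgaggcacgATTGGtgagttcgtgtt
Dnajc3: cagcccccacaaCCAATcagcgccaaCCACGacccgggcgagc
Pdia6: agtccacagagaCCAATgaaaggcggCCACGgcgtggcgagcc
Creld2: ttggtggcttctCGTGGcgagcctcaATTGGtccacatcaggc

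Heat shock elements were found in the windows of the other compartments. The 2-unit form, GAANNTTC (its own reverse complement), occurred in 7.86% of all windows and for 2442 of all 27025 genes with a window. Among the members it occurred for 7 of 11 cytosolic genes, for both mitochondrial genes with a window, and for none of the 9 ER chaperone genes. The matches of Bag3, Hspb8 and Hsph1 lay after the annotated start. A 3-unit form, TTC, GAA and TTC with NN between each on either strand, contains the shorter form and occurred in 0.603% of all windows. Among the members it was found for Hsph1, Hspd1 and Hspe1. Hspd1 and Hspe1, the mitochondrial chaperonin and its co-chaperonin, lie on opposite strands of chromosome 1, and their spans overlap at the starts. The same element lay before the start of Hspe1 and, for Hspd1, before an annotated start inside its span. It is shown on the strand of Hspe1 (chr1:55088051-55088079, plus). Hspa1a and Hspa1b, the near-identical inducible Hsp70 genes, held the same 26 letters around the element at chr17:34972244-34972269 and chr17:34959326-34959351 (both minus), shown beside the first of 2 matches before Hspb1 at chr5:135887793-135887818 (plus). Capitals mark the fixed letters.
Hspd1 and Hspe1: acggtccgTTCtaGAAccTTCcggaaggc
Hspa1a and Hspa1b: aaactgctgGAAgaTTCctggcccca
Hspb1: tcaacaagaGAAgtTTCcagatgggg

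The members took between 2.51% and 2.62% of all counts in every library. Cytosolic members summed to 15668 CPM in control cells under normoxia, 14747 CPM in control cells under hypoxia, 15551 CPM in IFN-γ treated cells under normoxia and 15319 CPM with both stimuli. Hsp90ab1 alone made up 8529, 7770, 8237 and 8407 CPM of these sums. The 3 mitochondrial members summed to 4117, 3802, 4208 and 3789 CPM in the same order, so that both hypoxic libraries lay below both normoxic ones. The 12 ER chaperones summed to 5722, 6147, 6319 and 6440 CPM, the control library under normoxia being the lowest. These sums were carried mostly by Hsp90b1 (2024, 2422, 2231 and 2507 CPM) and Hspa5 (1473, 1541, 1690 and 1609 CPM), so they do not describe the group as a whole. The UPR regulators summed to 320, 322, 320 and 329 CPM. Per kilobase of merged exons, the mean levels were led by Hsp90ab1 at 2746 CPM per kb, followed by Hspd1 at 917, Hspa8 at 763 and Hsp90b1 at 569 CPM per kb, and the stress-inducible Hspa1b reached 8.63 CPM per kb. In these bulk libraries a difference in RNA per cell and a difference in the share of cells expressing a gene cannot be told apart.

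IFN-γ treatment raised 2 members, both in the ER, and lowered none. Sdf2l1, which works with the J-domain protein Dnajb11 on unfolded ER clients, and Manf, a small ER-resident protein that binds Hspa5, were the only members called of the 31 tested, whereas 5.86% of all 13580 genes were called (4.76% up and 1.10% down), so the members' share lay near that of all genes. Of the 19 members with a mean of at least 5000 counts, 1 was called (Manf), beside 7.46% of the 1528 genes at that level, a minimum chosen after the values were seen. With no replicate of any condition, the spread in this test is the departure of each gene from additive effects of oxygen and IFN-γ over the 4 libraries, pooled across genes, and its p-values do not stand for replicate cultures. Without adjustment, 8 members had a p under 0.05 for IFN-γ, beside 1897 of the 13580 genes tested.

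Sdf2l1 (gene ID 64136, chr16:17130138-17132383) had 1950 counts in control cells under normoxia, 2046 under hypoxia, 2418 with IFN-γ under normoxia and 2513 with both. Both IFN-γ libraries lay above both control libraries. Its fitted log2 change was 0.32 ± 0.07 (SE, edgeR's quasi-likelihood test, Benjamini-Hochberg adjusted p = 0.000144), and the single pairs gave 25.2% under normoxia and 23.9% under hypoxia. Manf (gene ID 74840, chr9:106888753-106891938) had 7568, 7781, 9093 and 8564 counts in the same order. Here too the IFN-γ libraries lay above the controls, with a fitted log2 change of 0.22 ± 0.05 (adjusted p = 0.0022) and single-pair changes of 21.3% and 11.1%. Manf overlaps Dcaf1 and another gene on the opposite strand and Rbm15b on its own, and whether the counting used strand is not given in the sources used here. Both calls ended when oxygen was left out of the model (adjusted p = 0.213 for Sdf2l1 and 0.640 for Manf), and that of Manf with DESeq2's Wald test (adjusted p = 0.0802).

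The other ER chaperones had small positive fitted changes that did not pass the test. The fitted change was above 0 for 12 of 12 ER chaperones, 9 of which were positive in both pairs, with a median of 0.09. Of all 13580 genes tested, 6230 were above 0 and 3518 were positive in both pairs, with a median of -0.011. The pairs are parts of the same 4 libraries as the fit and are no separate support for it. Other ER genes, listed by function, did not share this. Of 20 other ER folding genes, 10 were above and 10 below 0, with a median of 0.0064. Of 17 genes of ER-associated degradation, 11 were above and 6 below 0, with a median of 0.018. Dnajc3, an inhibitor of PERK and a co-chaperone of Hspa5, had the smallest at 0.01 and turned to -0.0063 when total counts replaced TMM scaling. Hspa5 (BiP, the central ER Hsp70 and the repressor of the UPR sensors; gene ID 14828, chr2:34772090-34776529) had 50996, 53256, 57959 and 55105 counts. Its IFN-γ libraries were the 2 highest, its fitted change was 0.13 ± 0.04 (adjusted p = 0.0592), and it passed in 1 of 7 alternatives, the one without a filter on low counts (adjusted p = 0.0473). The single-pair changes of Hspa5 were 14.8% under normoxia, with a 95% interval of 0.18 to 0.22 on the log2 scale, and 4.41% under hypoxia, with 0.05 to 0.08; these intervals cover counting error only. Pdia4, a disulfide isomerase, had 11640, 11339, 12506 and 11995 counts. Creld2, an ER stress-induced protein of the ER lumen, had 6133, 5652, 6539 and 6034 counts, with the control library under normoxia above the IFN-γ library under hypoxia. The fitted changes of Pdia4 and Creld2 were both 0.11 (adjusted p = 0.326 and 0.399).

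None of the 12 tested cytosolic members, the 3 mitochondrial members or the 4 UPR regulators was called with IFN-γ. Unadjusted, 3 cytosolic members and none of the others had a p under 0.05, and the medians of their fitted changes were 0.0043, 0.015 and 0.04. The largest cytosolic value was that of Bag3, the nucleotide exchange factor that links Hsp70 and small heat shock proteins to autophagy, with 2536, 2281, 2622 and 2847 counts. Its IFN-γ libraries were the highest, and the fitted change was 0.20 ± 0.07 (adjusted p = 0.053). The lowest was that of Dnajb4, a cytosolic J-domain protein, at -0.14 ± 0.08 (adjusted p = 0.392). Hspa1b, the heat-inducible Hsp70, had 783, 778, 839 and 931 counts, a fitted change of 0.19 ± 0.09 (adjusted p = 0.24), and 0.20 ± 0.09 when summed with Hspa1a (adjusted p = 0.231). The sum matters because 68.1% of the 31-base words of Hspa1b and 70.1% of those of Hspa1a occur in the other or another gene, so reads could have been split between them. Hspa1a itself was counted 3, 5, 7 and 4 times and Hspb1, the small heat shock protein Hsp25, 4, 3, 3 and 0 times, both at or near the floor of 3 counts.

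**Figure D1:**
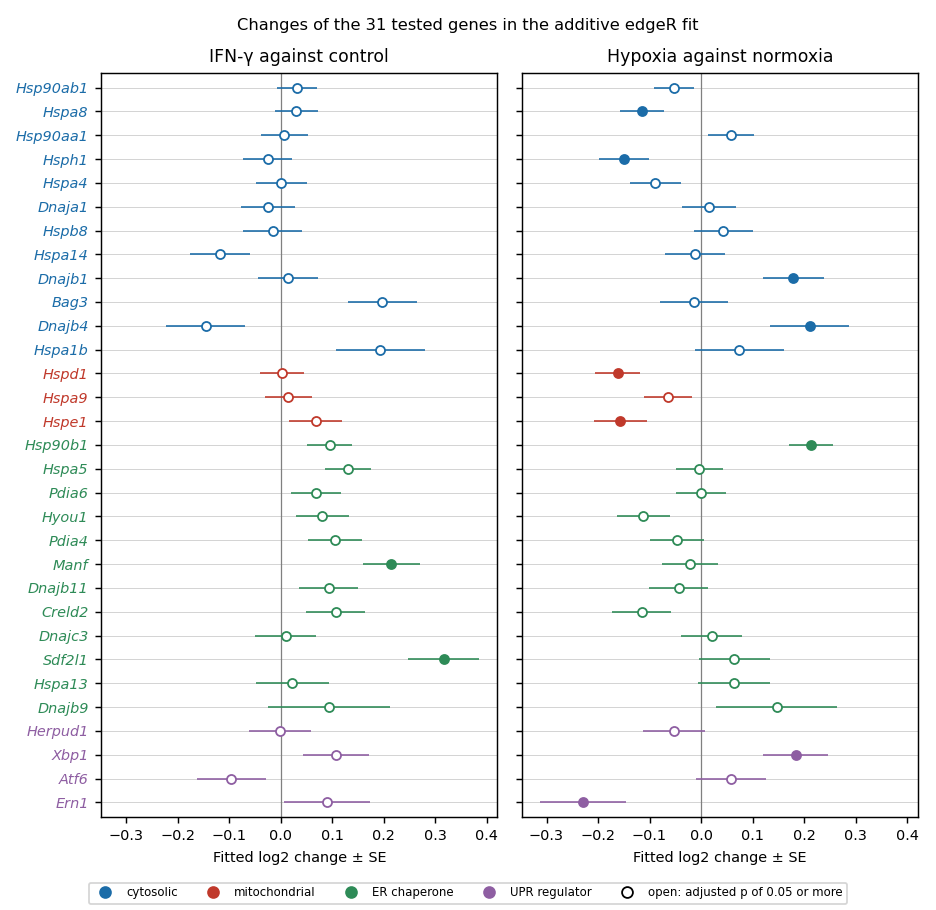
Fitted log2 changes (points) with standard errors (bars) of the 31 tested members for IFN-γ against control (left) and hypoxia against normoxia (right), coloured by compartment, filled where the adjusted p was under 0.05. With IFN-γ the 12 ER chaperones lie to the right of 0 and only Sdf2l1 and Manf are filled, and with hypoxia 4 members are filled to the right and 5 to the left.

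Hypoxia changed 9 members, with fitted log2 changes from -0.23 to 0.21. Hsp90b1, Dnajb1, Dnajb4 and Xbp1 rose and Hspa8, Hsph1, Hspd1, Hspe1 and Ern1 fell, out of 31 tested, beside 15.0% of all genes tested (8.21% up and 6.83% down). Abundant genes were called more often. Of the 19 members with a mean of at least 5000 counts, 5 were called, beside 25.7% of all 1528 such genes. Dnajb1, Dnajb4, Xbp1 and Ern1, also called, lay below that minimum, which was chosen after the values were seen. The share of all genes called below it is not given here. Whether abundance bears on the members' share was not tested. Unadjusted, 11 members had a p under 0.05, beside 3595 of the 13580 genes tested.

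In the ER, hypoxia raised Hsp90b1, the ER paralogue of Hsp90 (GRP94, a chaperone of integrins and Toll-like receptors; gene ID 22027, chr10:86690841-86705444). It had 70070 counts in control cells under normoxia, 83702 in control cells under hypoxia, 76488 with IFN-γ under normoxia and 85860 with both. Both hypoxic libraries lay above both normoxic ones, by 19.7% in the control pair and 12.4% in the IFN-γ pair, and the fitted log2 change was 0.21 ± 0.04 (edgeR's quasi-likelihood test, adjusted p = 2.50e-05). Hsp90b1 was the ER chaperone whose window held 2 of the elements shown above, and whether they bear on its change was not tested. Hspa5, Dnajc3, Pdia6 and Creld2, which also held the element, had fitted hypoxia changes of -0.0032, 0.021, -0.00093 and -0.11. Hsp90b1 is overlapped by 1810014B01Rik on the opposite strand and by Gm15344 and Gm25745 on its own. The other 11 ER chaperones were not called. Hspa5 had a fitted change of -0.0032 ± 0.04 (adjusted p = 0.977), with a hypoxia difference of 4.62% in the control pair and -4.83% in the IFN-γ pair. The lowest values were those of Creld2, at -0.11 ± 0.06 (adjusted p = 0.174), and Hyou1, the nucleotide exchange factor of Hspa5, at -0.11 ± 0.05 (adjusted p = 0.13). Hyou1 had 13908, 12428, 14100 and 13468 counts, both hypoxic libraries below both normoxic ones. The median over the 12 was -0.0021, beside 0.0047 over all genes tested, with 5 fitted changes above and 7 below 0.

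The remaining ER members varied without a common direction under hypoxia. Dnajb9 (ERdj4, which returns IRE1 to its resting state) was the least counted tested member, with 349, 390, 373 and 408 counts and a fitted change of 0.15 ± 0.12 (adjusted p = 0.467). Dnajb11 had 6249, 5633, 6147 and 6398 counts, lowest in the control library under hypoxia. Hspa13, an Hsp70-like protein of microsomes, had 1839, 2105, 2030 and 1933 counts, the control pair differing by 14.7% and the IFN-γ pair by -4.69%. Pdia6, another disulfide isomerase, had 22904, 23391, 24360 and 23757 counts and a fitted change within 0.001 of 0. Its adjusted p was 0.995. Dnajc3 had 4518, 4724, 4652 and 4567 counts, with the IFN-γ library under hypoxia below the one under normoxia.

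Among the UPR regulators Xbp1 rose and Ern1 fell with hypoxia. Xbp1, whose mRNA is the splicing substrate of IRE1 (gene ID 22433, chr11:5520641-5525993), had 2869, 3327, 3132 and 3474 counts. The hypoxic libraries were the 2 highest, and Xbp1 rose by a fitted log2 change of 0.18 ± 0.06 (adjusted p = 0.0304). Ern1, which encodes IRE1 itself (gene ID 78943, chr11:106397620-106487796), had 1016, 820, 1017 and 913 counts. The hypoxic libraries were the 2 lowest, and Ern1 had a fitted log2 change of -0.23 ± 0.08 (adjusted p = 0.0412). This call was kept in 1 of 7 alternatives, the sum of Hspa1a and Hspa1b, which leaves the counts of Ern1 as they were. Every alternative that changed the scaling, filter, model or test lost it. Gene counts do not separate spliced from unspliced Xbp1. Atf6 had 2485, 2536, 2262 and 2395 counts and a fitted hypoxia change of 0.06 ± 0.07, and Herpud1, an ER membrane protein of degradation that the UPR induces, had 4695, 4447, 4572 and 4476 counts and -0.05 ± 0.06 (adjusted p = 0.648 and 0.636).

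In the cytosol hypoxia raised 2 J-domain genes and lowered 2 genes of the Hsp70 machinery. Dnajb1 (Hsp40, the J-domain partner of Hsp70 in disaggregation; gene ID 81489, chr8:83608175-83612653) had 4596, 5286, 4678 and 5202 counts. Both hypoxic libraries lay above both normoxic ones, with single-pair changes of 15.2% and 11.3% and a fitted log2 change of 0.18 ± 0.06 (adjusted p = 0.0205). Dnajb4 (gene ID 67035, chr3:152181580-152210432) had 1260, 1555, 1208 and 1305 counts, the control library under hypoxia standing highest. Its fitted change was 0.21 ± 0.08 (adjusted p = 0.0422), with 23.6% in the control pair and 8.13% in the IFN-γ pair, where the counting interval reached 0. The call of Dnajb4 was kept in 1 of 7 alternatives, the sum of Hspa1a and Hspa1b, which leaves its own counts as they were. Every alternative that changed the scaling, filter, model or test lost it. Hspa8 (Hsc70, the constitutive Hsp70; gene ID 15481, chr9:40801276-40805202) had 116339, 108391, 118919 and 108592 counts. Both hypoxic libraries were below both normoxic ones, it fell by 6.66% in the control pair and fell by 8.60% in the IFN-γ pair, and the fitted change was -0.11 ± 0.04 (adjusted p = 0.044). Hsph1 (Hsp110, the nucleotide exchange factor of cytosolic Hsp70; gene ID 15505, chr5:149616843-149636498) had 27640, 25063, 27107 and 24215 counts. Its hypoxic libraries were the 2 lowest, with pair differences of -9.16% and -10.6%, and the fitted change was -0.15 ± 0.05 (adjusted p = 0.0165). Of the 31-base words of Hspa8, 44.8% occur in another annotated gene, so its count is uncertain.

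The other cytosolic members were not called under hypoxia. Hsp90ab1, the constitutive Hsp90 and the most counted member, had 295309, 268548, 282432 and 287981 counts, the control library under hypoxia standing lowest, and a fitted change of -0.05 ± 0.04 (adjusted p = 0.416). Hsp90aa1, its stress-inducible paralogue, had 49482, 53504, 51245 and 51225 counts and 0.06 ± 0.05 (adjusted p = 0.445), and shares 51.5% of its words with other genes. The inducible form was highest and the constitutive form lowest in the same library, control cells under hypoxia. Hspa4, a second Hsp110-type exchange factor, had 20138, 19354, 20436 and 18744 counts, both hypoxic libraries below the normoxic ones, and a fitted change of -0.09 ± 0.05 (adjusted p = 0.239). Hspb8, Dnaja1 and Hspa14 had fitted changes between -0.012 and 0.04. Hspa1b had 0.07 ± 0.09 (adjusted p = 0.645) and Bag3 -0.014 ± 0.07 (adjusted p = 0.93), and neither passed the test. The median over the 12 tested cytosolic members was 0.0017, with 6 fitted changes above and 6 below 0.

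The mitochondrial chaperones were lower under hypoxia in both pairs. Hspd1 (Hsp60, the chaperonin of the matrix; gene ID 15510, chr1:55077833-55088243) had 87481 counts in control cells under normoxia, 79886 under hypoxia, 88844 with IFN-γ under normoxia and 77491 with both. Both hypoxic libraries were below both normoxic ones, with pair differences of -8.52% and -12.7% and a fitted log2 change of -0.16 ± 0.04 (edgeR's quasi-likelihood test, adjusted p = 0.00252). Hspe1 (Hsp10, the lid of the Hsp60 cage; gene ID 15528, chr1:55088148-55091317) had 13876, 12808, 14846 and 12905 counts. It too was lower in both hypoxic libraries, with pair differences of -7.53% and -13.0% and a fitted change of -0.16 ± 0.05 (adjusted p = 0.0199). Hspa9 (mortalin, the matrix Hsp70 of protein import) had 41204, 38711, 40574 and 39403 counts, both hypoxic libraries below both normoxic ones, and a fitted change of -0.06 ± 0.05 that did not pass (adjusted p = 0.398). The median of the 3 was -0.16, and all 3 were negative under each scaling tried. Hspd1 shares 53.1% and Hspe1 30.5% of their words with other annotated genes, and the annotated spans of the pair overlap on opposite strands, so both counts are uncertain.

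These calls rest on the additive model. With IFN-γ left out of it none of the 9 members was called, and DESeq2's Wald test called Hsp90b1 alone.

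**Figure D2:**
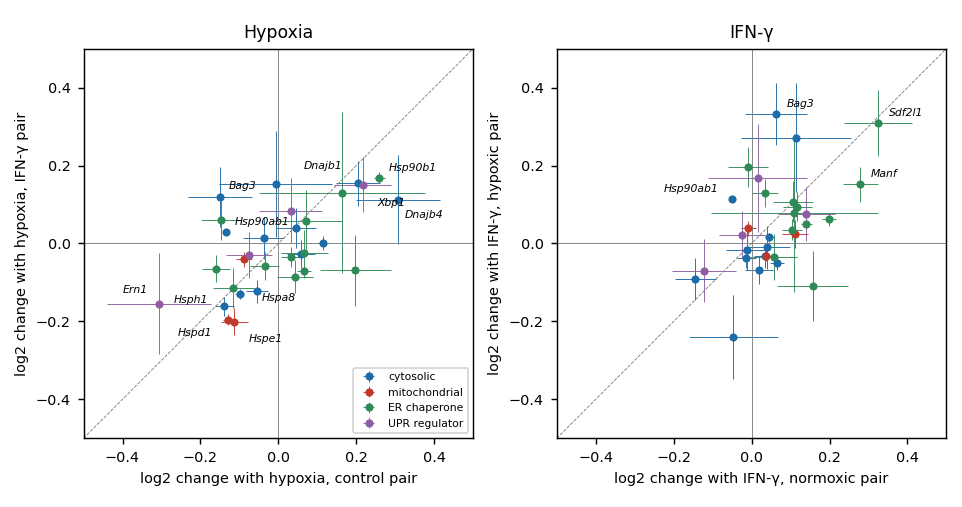
Single-pair log2 changes of the 31 tested members with 95% counting intervals (bars): hypoxia in the control pair (horizontal) against the IFN-γ pair (vertical) on the left, and IFN-γ in the normoxic pair against the hypoxic pair on the right, coloured by compartment, with called members, Bag3 and Hsp90ab1 named and the line of equal change dashed. Hspd1, Hspe1, Hsph1 and Hspa8 lie below 0 on both axes of the left panel and Hsp90b1, Dnajb1 and Xbp1 above 0, while Bag3 (-0.15 and 0.12) changes sign between the pairs.

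With 1 library per condition, whether a member's response to one stimulus differed in the presence of the other was not tested. The difference is given as a value, the log2 change with IFN-γ under hypoxia minus that under normoxia, which equals the hypoxia change with IFN-γ minus that without. Among the 31 tested members it ran from -0.27 for Hspa13 to 0.27 for Bag3. Over the 10443 genes that reached 100 counts in all 4 libraries, the central 95% ran from -0.36 to 0.40, and every tested member lay inside that range. Bag3 differed between hypoxia and normoxia by -9.89% without IFN-γ and by 8.68% with it. Hsp90ab1 differed by -8.90% without IFN-γ and by 2.06% with it, which is 0.16 (0.15 to 0.17) on the log2 scale. Dnajb11 showed the same order, with -9.70% and 4.18%, and Hspa5 the opposite one.

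Of the other genes in the same pathways, taken from lists by function, several had larger fitted hypoxia changes than any member, led by Ero1a and Lonp1. Among 20 other ER folding genes, hypoxia raised Ero1a and P4hb and lowered none, beside 8.21% of all genes raised and 6.83% lowered. Ero1a, the oxidase that regenerates disulfide isomerases, had 4791, 9887, 4643 and 9398 counts. Its hypoxic libraries were far above its normoxic ones, with a fitted log2 change of 1.03 ± 0.06 (adjusted p = 4.28e-71). P4hb, the disulfide isomerase that Ero1a oxidizes and a subunit of collagen prolyl hydroxylase, had 21902, 26228, 21258 and 25941 counts and a fitted change of 0.28 ± 0.05 (adjusted p = 5.63e-07). IFN-γ raised 1 gene of this list, Uggt1, the glucosyltransferase that returns misfolded glycoproteins to calnexin, by 0.28 ± 0.05 (adjusted p = 1.36e-05), a call that ended with oxygen left out of the model. The median hypoxia change of the list was 0.02.

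The PERK arm of the UPR held 4 raised genes of 9 under hypoxia and none lowered, beside 8.21% of all genes raised. DESeq2's Wald test called 2 of the list, and no gene of it was called with IFN-γ left out of the model. Nupr1 rose by 0.37 ± 0.08 (adjusted p = 2.76e-05), Trib3 by 0.36 ± 0.06 (adjusted p = 4.10e-07), Ddit3 by 0.33 ± 0.08 (adjusted p = 0.000992) and Eif2ak3, PERK itself, by 0.22 ± 0.08 (adjusted p = 0.04). Ddit3 encodes the transcription factor CHOP, and Trib3 and Nupr1 are stress-induced regulators downstream of Atf4. Ddit3 had 814, 1155, 924 and 1030 counts, the control library under hypoxia standing highest. The list's median was 0.20, the highest of the pathway lists, beside 0.0047 over all genes tested. Among 17 genes of ER-associated degradation hypoxia raised Os9 (0.23 ± 0.06, adjusted p = 0.00358) and lowered Selenos (-0.29 ± 0.08, adjusted p = 0.00688), beside 8.21% of all genes raised and 6.83% lowered. Both calls ended with DESeq2's Wald test and with IFN-γ left out of the model. Neither list had a gene called with IFN-γ in edgeR's test, where 4 degradation genes and 1 gene of the PERK arm had an unadjusted p under 0.05.

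Next to the mitochondrial chaperones, 12 genes of mitochondrial protein quality control held 1 raised and 3 lowered under hypoxia. Over all genes tested, 8.21% were raised and 6.83% lowered. Lonp1, the matrix protease, had 9699, 16527, 9301 and 15246 counts. It rose by 0.74 ± 0.05 (adjusted p = 1.77e-43) in contrast to Hspd1 and Hspe1. Htra2, an intermembrane space protease, had a fitted change of -0.24 ± 0.07 (adjusted p = 0.00331), the matrix peptidase subunit Clpp -0.20 ± 0.07 (adjusted p = 0.0279) and the matrix Hsp90 Trap1 -0.18 ± 0.06 (adjusted p = 0.0217). Of the 8 subunits of the cytosolic chaperonin TRiC, which folds actin and tubulin, hypoxia lowered 3. Each subunit had over 5000 counts in every library, and 25.7% of genes with a mean of at least 5000 were called in either direction. All 8 had negative fitted hypoxia changes under each scaling tried, 7 of them in both pairs, with a median of -0.11. Cct4 (-0.27 ± 0.05, adjusted p = 3.73e-06), Cct3 (-0.20 ± 0.05, adjusted p = 0.000293) and Cct6a (-0.14 ± 0.05, adjusted p = 0.0337) were called, 2 of the 3 with DESeq2's Wald test and none with IFN-γ left out of the model. The same alternatives each called 1 raised and 0 lowered of the 12 mitochondrial quality control genes.

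Among 24 cytosolic co-chaperones and heat shock factors, hypoxia raised 2 and lowered 3, beside 8.21% of all genes raised and 6.83% lowered. All 5 calls ended with DESeq2's Wald test and with IFN-γ left out of the model, and without a filter on low counts 1 raised and 1 lowered gene were called. Hsf1, the master regulator of the heat shock response, had 2202, 1751, 2133 and 1846 counts. Its hypoxic libraries were the 2 lowest, and the fitted change was -0.27 ± 0.07 (adjusted p = 0.00236). Dnajb2 rose by 0.27 ± 0.07 (adjusted p = 0.000566) and Dnajb6 by 0.19 ± 0.06 (adjusted p = 0.0228), both of them J-domain genes. Hspbp1, an exchange factor of Hsp70, had -0.22 ± 0.07 (adjusted p = 0.0249), and the fifth called gene was Ahsa1, the activator of the Hsp90 ATPase. None of the 24 co-chaperones, the 8 TRiC subunits or the 12 mitochondrial genes was called with IFN-γ in edgeR's test, and 3, 1 and 1 of them had an unadjusted p under 0.05.

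**Figure D3:**
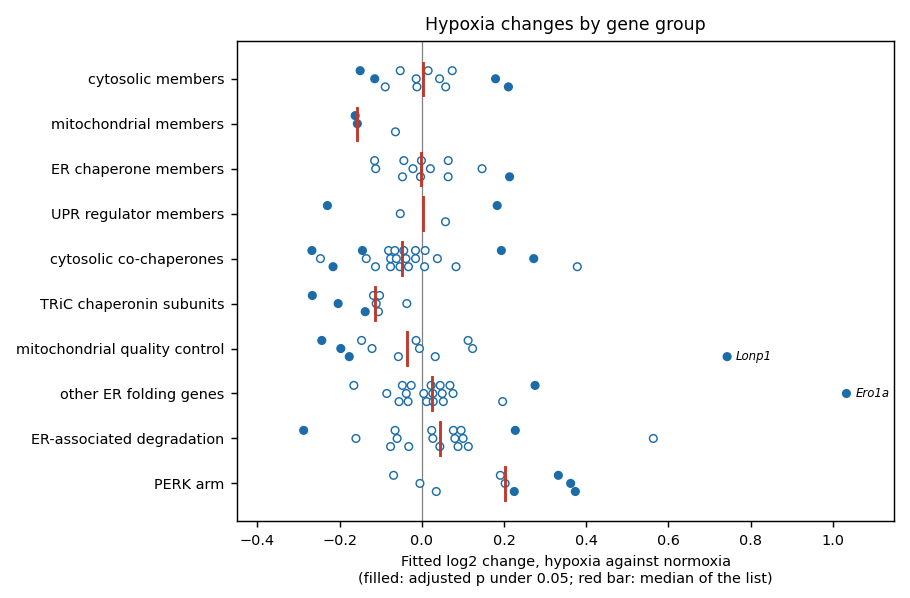
Fitted log2 changes with hypoxia of every tested gene in the 4 member groups and 6 pathway lists, filled where the adjusted p was under 0.05, with the median of each list as a red bar. The mitochondrial members and the TRiC subunits lie below 0 (medians -0.16 and -0.11), the PERK arm has the highest median (0.20), and Ero1a (1.03) and Lonp1 (0.74) stand apart.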

How the data were processed

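RNA was extracted from MC38 cells, and strand-specific libraries were made from poly-A selected RNA and sequenced from both ends on a DNBSEQ instrument. The authors aligned reads with HISAT2 and deposited a table of raw counts, whole reads assigned to each NCBI gene ID. The submitters' processing notes name featureCounts and mm10. The annotation, the strand setting and the treatment of multiply matching reads are not given in the sources used here. Gene IDs were matched to symbols with a RefSeq table of GRCm38.p6 (25275 of 27179 matched), and spans, exon lengths and shared 31-base words were taken from GENCODE vM21 on the same assembly. The counts of Hspa8, Hspa1a, Hspa1b, Hsp90aa1, Hspb1, Hspd1, Hspe1 and Dnaja1, each with over 20% of its words in other genes, were treated as uncertain.

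Counts were fitted with edgeR 4.0.16 in R 4.3.3, using filterByExpr (minimum count 10), TMM and an additive model of oxygen and IFN-γ with 1 residual degree of freedom per gene. Genes were called at a Benjamini-Hochberg adjusted p under 0.05 over all 13580 genes tested. The common dispersion corresponded to a coefficient of variation of 4.71%. Changes within 1 pair of libraries are log2 ratios of TMM-scaled CPM after adding 0.5 counts, with exact Clopper-Pearson 95% intervals, which cover counting error only. Percentages are the same ratios. The floor was set at 3 counts, which at the depth of 34302971 to 34537939 counts equals 0.0869 to 0.0875 CPM. The fit was also run on simulated data, and the outcome is not reported here.

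The members, the gene lists and the rules were chosen with earlier results of these data known. All members may be named. Of each other list, up to 4 genes with the largest fitted change among those called for either stimulus were named with values. Genes of the IFN-γ and hypoxia checks were named in 1 sentence, and Ahsa1 is outside the rule. 1 gene of the IFN-γ check is not reported here. Alternatives were DESeq2 size factors, total counts, DESeq2's Wald test (1.42.0), 2 other filters, the other stimulus left out, Hspa1a and Hspa1b summed, single pairs, and 5 counts added.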

Additional observations from a re-analysis of the deposited data

Results flagged for a closer look

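In 9 members the single-pair changes with 1 stimulus had opposite signs in the absence and presence of the other, and 0 lay outside the counting interval of both. With 1 library per condition these differences were not tested, and all lie within the central 95% of the differences of 10443 genes (-0.36 to 0.40). For the IFN-γ change, hypoxia minus normoxia, the difference was -0.27 for Hspa13, -0.11 for Hsp90aa1, -0.0686 for Hspa4 and -0.0674 for Hspd1, which were higher with IFN-γ under normoxia and lower under hypoxia, and 0.16 for Hsp90ab1, which was lower under normoxia and higher under hypoxia. For the hypoxia change, IFN-γ minus control, it was 0.27 for Bag3, 0.21 for Dnajb11 and again 0.16 for Hsp90ab1, which were lower under hypoxia without IFN-γ and higher with it. It was -0.14 for Hspa5 and -0.0677 for Pdia6, which were higher under hypoxia without IFN-γ and lower with it.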

How the results depend on the processing

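No paired analysis was possible because each condition has 1 library. Leaving out any library leaves 1 complete pair and no test, so single pairs stand in for it. Members raised by IFN-γ numbered 2, and 0 with oxygen left out of the model and 1 (Sdf2l1) with DESeq2's Wald test. Members raised by hypoxia numbered 4, and 1 (Hsp90b1) without a filter on low counts, 0 with IFN-γ left out and 1 with the Wald test. Members lowered by hypoxia numbered 5, and 3 (Hspd1, Hspe1 and Hsph1) with at least 10 counts in every library, 0 with IFN-γ left out and 0 with the Wald test. A model without the other stimulus puts its effect into the spread. The cause of the other losses was not tested. The ER chaperone median with hypoxia was 0.0539 in the control pair alone and -0.0468 in the IFN-γ pair alone. In fits to all 4 libraries, signs turned only for uncalled changes near 0. In single pairs they also turned for larger ones, as for the IFN-γ changes of Hspa13 (-0.11 under hypoxia) and Dnajb11 (-0.0096 under normoxia). With total counts the IFN-γ change was -0.015 for Hspa4, -0.00914 for Hsp90aa1, -0.0019 for Dnajb1, -0.0013 for Hspa9, -0.014 for Hspd1 and -0.0063 for Dnajc3. For Herpud1 it was 0.0011 with DESeq2 size factors, 0.00901 without a filter, 0.0059 with at least 10 counts in every library and 0.0011 with the Wald test. The hypoxia change of Pdia6 was 0.000235 with DESeq2 size factors and 0.000238 with the Wald test. Over all genes, IFN-γ raised 647 and lowered 149 (81.3% raised), beside 353 and 16 (95.7%) with the Wald test and 239 and 3 (98.8%) with oxygen left out. Hypoxia raised 1115 and lowered 927 (54.6%), beside 362 and 214 (62.8%) and 150 and 26 (85.2%).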

Other observations

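Some other response elements were searched in the same RefSeq promoter windows on both strands. The UPR element TGACGTGG occurred in 0.676% of all windows and in no member window. The hypoxia response core ACGTG occurred in 19.6% of all windows and in 12 of the 31 member windows. It was held by 11 of the 25 members with a window. Of the members called with hypoxia, Hspd1, Hsph1, Dnajb1 and Dnajb4 held it, Hsp90b1, Xbp1, Ern1 and Hspe1 did not, and Hspa8 had no window. Of those not called, Hspa4, Hspa14, Hspa5, Dnajb9, Dnajc3, Pdia6 and Herpud1 held it, and the others with a window did not. Whether it bears on their changes was not tested.

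By the distance of their 4 centred log2 CPM values, the genes nearest to Hspa5 among 10443 genes that reached 100 counts in all 4 libraries were Plekha3 (0.010), Pxk (0.019) and Kcnn4 (0.020), and those nearest to Hspa1b were Asap1 (0.014), Fam20b (0.019) and Fgd1 (0.021). With 4 libraries such a likeness is a description only.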
